A study of Mus musculus with 8 samples.

Results

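The miR-15, miR-16, miR-195 and miR-497 family was represented by 5 mature mouse miRNAs, mmu-miR-15a-5p, mmu-miR-15b-5p, mmu-miR-16-5p, mmu-miR-195a-5p and mmu-miR-497a-5p (the mouse prefix is dropped below), which were taken by name from the 1881 mouse miRNAs on the array, and all 5 were present. Their levels were measured in vesicles from mouse amniotic fluid that the labels call exosomes, on 8 one-colour Agilent miRNA arrays. In the LPS group (4 arrays), bacterial lipopolysaccharide at 100 μg/kg of body weight had been given into the peritoneal cavity on day 14 of pregnancy. The mice gave birth preterm about 48 h later, and fluid was taken from embryos whose waters had not broken once vaginal bleeding was seen. The control group (4 arrays) held fluid from cesarean sections. Every sample is labelled as 17 days of pregnancy, although an interval of 48 h from day 14 ends before day 17. Whether the cesarean mice received any injection, the mouse strain and whether each array is a separate animal or a pool are not given in the labels, so p-values measure the spread between these samples, which may be technical. The labels give no genetic change in either group. The arrays read miRNAs and no protein, so the vesicles could not be checked against exosome proteins.

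The family is defined by its seed, the stretch near the 5′ end of a miRNA that pairs with target mRNAs, and its members can therefore repress overlapping sets of genes. Known targets include cyclins, cell cycle kinases and Bcl2, and loss of the miR-15a and miR-16-1 locus is a frequent lesion in human chronic lymphocytic leukaemia. miR-16 is abundant in red blood cells and blood plasma, and miR-195 rises in the mouse heart as its muscle cells leave the cell cycle after birth.

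The mature sequences show what the members share and what a probe has to tell apart. They are RefSeq sequences on GRCm38.p6, written 5′ to 3′ with the seed (bases 2 to 8) in capitals.
miR-15a-5p: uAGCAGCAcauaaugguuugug
miR-15b-5p: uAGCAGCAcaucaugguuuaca
miR-16-5p: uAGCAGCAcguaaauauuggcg
miR-195a-5p: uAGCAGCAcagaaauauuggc
miR-497a-5p: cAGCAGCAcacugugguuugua
All 5 members were identical from base 2 to base 9. At the first base, 4 members had U and 1 had C. The remaining bases grouped the members differently from their loci. Counted from 1 at the 5′ end, miR-16-5p and miR-195a-5p, which come from different chromosomes, were identical at 19 of 21 aligned positions and differed by G10A and U11G (miR-16-5p base first).

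The 5 miRNAs come from 3 clusters. miR-15a-5p (chr14:61632075-61632096, minus strand) and the first copy of miR-16-5p (chr14:61631936-61631957, minus strand) lie 117 bases apart within Dleu2, a long noncoding RNA gene. miR-15b-5p (chr3:69009775-69009796, plus strand) and the second copy of miR-16-5p (chr3:69009918-69009939, plus strand) lie 121 bases apart within Smc4, which encodes a condensin subunit. miR-497a-5p (chr11:70234730-70234751, plus strand) and miR-195a-5p (chr11:70235062-70235082, plus strand) lie 310 bases apart, and no other RefSeq gene in the table overlapped them. The mature miR-16-5p of both copies has the same sequence, so its signal cannot be told apart by locus.

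All 5 members were measured well. Each had a pair of probes, and on all 8 arrays every kept spot of both probes was well above background by the scanner software. Between 12 and 15 spots per probe and array were kept, and the median coefficient of variation between the spots of the probe used was 3.76% to 4.86%. The brighter probe of each miRNA stands for it below, as a log2 signal scaled to the 75th percentile of each array. Levels of different miRNAs are not compared, because each probe binds with its own strength.

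Across the arrays, 405 to 519 miRNAs were above background in the LPS group and 413 to 554 in the cesarean group, with means of 458 ± 47.0 and 480 ± 68.2 (SD, n = 4 each, exact permutation p = 0.657, two-sided). A single slide held every array, the LPS group in the first row and the cesarean group in the second, so row and group cannot be told apart. Of 470 miRNAs tested with limma, 23 passed a Benjamini-Hochberg adjusted p of 0.05 (4.89%), 12 higher and 11 lower with LPS. Without scaling between arrays, or with scaling to spike-in probes, 0 were called higher and 1 lower.

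None of the 5 family members passed that threshold, against the 4.89% of all tested miRNAs. The 3 members of the chromosome 3 and 14 clusters, miR-15a-5p, miR-15b-5p and miR-16-5p, had higher means in LPS fluid, and the 2 members of the chromosome 11 cluster, miR-195a-5p and miR-497a-5p, had slightly lower means. In all 5 the groups overlapped. Groups did not overlap for 80 of the 470 miRNAs (17%). The median difference of the family was 0.32 on the log2 scale, against -0.06 over all tested miRNAs. In RNA from a mixed vesicle preparation, more vesicles carrying a miRNA and more copies per vesicle cannot be told apart.

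mmu-miR-15a-5p, whose gene is lost in the leukaemia named above, had log2 signals of 7.96, 7.76, 8.14 and 7.52 in LPS fluid, against 7.49, 7.73, 6.73 and 7.64 in cesarean fluid. LPS replicate 3 was the highest array and cesarean replicate 3 the lowest by a wide gap, and LPS replicate 4 lay below 2 cesarean arrays. The means were 7.84 ± 0.27 with LPS and 7.40 ± 0.46 after cesarean section (SD, n = 4 each), a difference of 0.45 ± 0.28 (SE, 95% interval -0.17 to 1.06) or 1.36-fold (limma adjusted p = 0.343). Without cesarean replicate 3 the difference was 0.22 (limma adjusted p = 0.674).

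mmu-miR-15b-5p, made from the Smc4 gene, had log2 signals of 9.998, 9.73, 10.15 and 9.44 in LPS fluid, against 9.33, 9.42, 8.80 and 9.59 in cesarean fluid. In LPS fluid 3 of 4 arrays exceeded every cesarean array, and LPS replicate 4 fell between the cesarean values. The means were 9.83 ± 0.31 with LPS and 9.29 ± 0.34 after cesarean section (SD, n = 4 each). The difference was 0.55 ± 0.26 (SE, 95% interval -0.03 to 1.12) or 1.46-fold, with an unadjusted limma p of 0.0617 and an adjusted p of 0.220. An unadjusted p under 0.05 was reached by 117 of the 470 tested miRNAs (24.9%) and by none of the 5 members.

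mmu-miR-16-5p, the member made by both the Dleu2 and the Smc4 clusters, had log2 signals of 10.72, 10.43, 11.02 and 10.21 in LPS fluid, against 10.25, 10.54, 9.74 and 10.58 in cesarean fluid. The highest array was LPS replicate 3 and the lowest cesarean replicate 3, as for both miR-15 members; LPS replicates 1 and 3 exceeded every cesarean array, and LPS replicates 2 and 4 did not. The means were 10.60 ± 0.35 with LPS and 10.28 ± 0.39 after cesarean section (SD, n = 4 each), a difference of 0.32 ± 0.28 (SE, 95% interval -0.30 to 0.93) or 1.25-fold (limma adjusted p = 0.507). Without LPS replicate 3 the difference was 0.18, and without cesarean replicate 3 it was 0.14.

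mmu-miR-195a-5p, the heart-regulated member, had log2 signals of 8.57, 7.87, 7.95 and 7.64 in LPS fluid, against 8.24, 8.40, 7.81 and 7.999 in cesarean fluid. The LPS group held both the highest and the lowest array. The means were 8.01 ± 0.40 with LPS and 8.11 ± 0.26 after cesarean section (SD, n = 4 each), and the difference of -0.10 ± 0.26 (SE, 95% interval -0.69 to 0.48) had a limma adjusted p of 0.864. Without LPS replicate 4 the difference was 0.02, and without LPS replicate 1 it was -0.29.

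mmu-miR-497a-5p, the cluster partner of miR-195a-5p, had log2 signals of 8.04, 7.38, 7.38 and 7.43 in LPS fluid, against 7.66, 7.94, 7.64 and 7.54 in cesarean fluid. LPS replicate 1 was the highest of all 8 arrays, while the other 3 LPS arrays lay below every cesarean array. The means were 7.56 ± 0.32 with LPS and 7.70 ± 0.17 after cesarean section (SD, n = 4 each), a difference of -0.14 ± 0.24 (SE, 95% interval -0.66 to 0.39, limma adjusted p = 0.762). Without LPS replicate 1 it was -0.30.

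**Figure D1:**
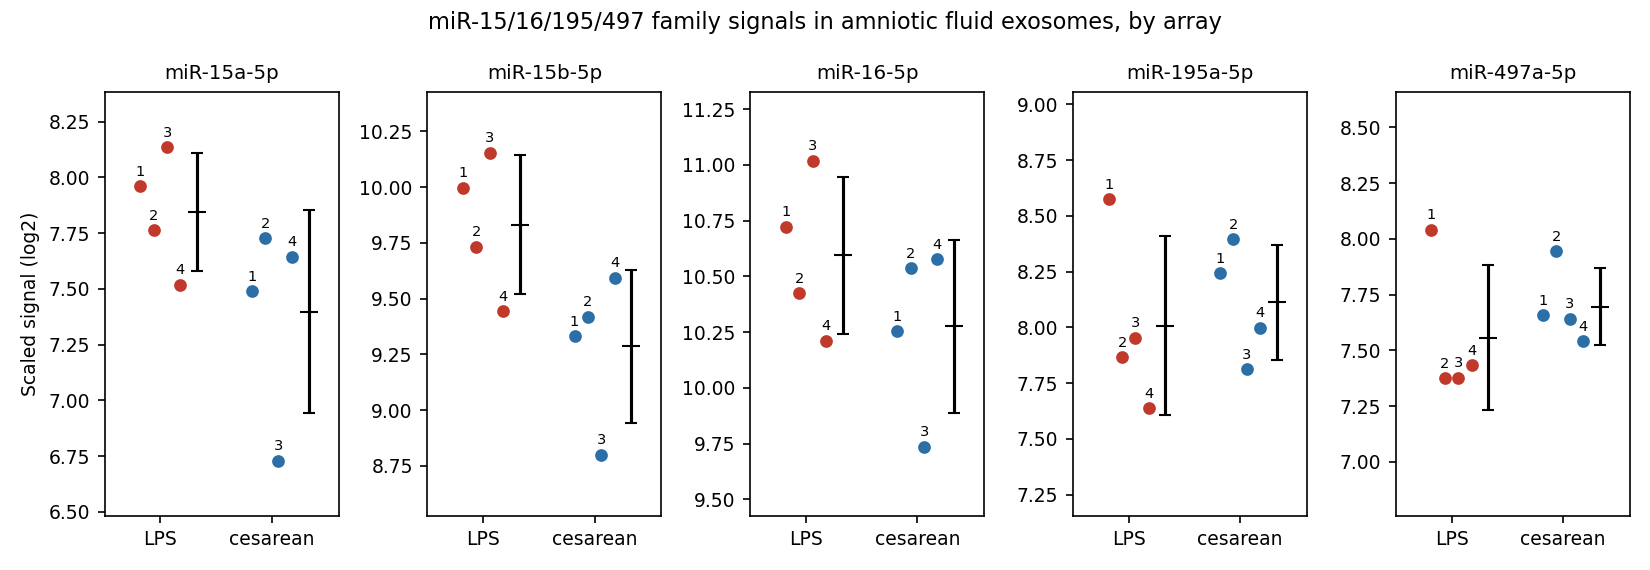
Scaled log2 signal of each family member (1 panel each, with its own vertical axis of equal span) on the 4 LPS arrays (left, red) and the 4 cesarean arrays (right, blue), numbered by replicate, with the mean and SD of each group in black. The groups overlap in every panel, and cesarean replicate 3 is the lowest array for miR-15a-5p, miR-15b-5p and miR-16-5p.

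Set against all tested miRNAs, the members' differences were of middling or small size. Of the tested miRNAs, 61.9% had a smaller absolute difference than miR-15b-5p, 53.8% a smaller one than miR-15a-5p and 41.3% a smaller one than miR-16-5p. For miR-497a-5p this share was 19.6% and for miR-195a-5p 15.3%. The scaling between arrays moved all miRNAs together: without scaling the median over all tested miRNAs was -0.20, and with scaling to the spike-in probes it was -0.19. Relative to the median of all tested miRNAs, the unscaled differences were 0.50 for miR-15a-5p, 0.60 for miR-15b-5p, 0.37 for miR-16-5p, -0.05 for miR-195a-5p and -0.09 for miR-497a-5p.

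The second, dimmer probe of each member read the same RNA and gave similar differences in 4 of 5 members. These differences (LPS minus cesarean, log2) were 0.45 for miR-15a-5p, 0.71 for miR-15b-5p, 0.30 for miR-16-5p and -0.15 for miR-195a-5p. For miR-497a-5p the dimmer probe gave 0.06, the opposite sign of the brighter one. The direction of miR-497a-5p therefore depended on the probe.

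Whether the members moved unequally was examined within arrays, where any scaling factor cancels, for all 10 pairs of members, each with an exact permutation test (two-sided, over the arrays). No pair passed after adjustment over the 10 pairs (smallest adjusted p = 0.171), and the smallest unadjusted p that the design allows is 0.0286. The signal of miR-15b-5p relative to that of miR-16-5p on the same array was -0.86 to -0.69 in LPS fluid, against -1.12 to -0.92 in cesarean fluid (log2). These ranges, from the brighter probes, did not overlap. The change was 0.23 (exact permutation p = 0.0286, adjusted p = 0.171). Other values of the same arrays differed on this point. The groups stayed apart with the mean over all probes (change 0.32) and with the scanner software's total (change 0.28). Both had an exact permutation p of 0.0286, with adjusted p of 0.171 and 0.143. The groups overlapped with normexp background correction (0.20, exact permutation p = 0.0571) and in the deposited value table (0.22, exact permutation p = 0.0857). They also overlapped with the dimmer probes (0.40, exact permutation p = 0.0571).

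The pairs that join the chromosome 11 cluster to the others had larger changes and wider spreads. miR-15b-5p relative to miR-497a-5p was 1.96 to 2.78 in LPS fluid, against 1.16 to 2.05 in cesarean fluid, a change of 0.68 (exact permutation p = 0.0857, adjusted p = 0.171). miR-15b-5p relative to miR-195a-5p was 1.42 to 2.20 in LPS fluid, against 0.99 to 1.596 in cesarean fluid, a change of 0.65 (exact permutation p = 0.0571, adjusted p = 0.171). In both pairs the ranges overlapped. For miR-15a-5p the changes relative to miR-195a-5p and miR-497a-5p were 0.55 and 0.59, and for miR-16-5p they were 0.42 and 0.46. Between the cluster partners miR-195a-5p and miR-497a-5p the change was 0.03 (exact permutation p = 0.657, adjusted p = 0.657).

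The arrays on which a member was high or low differed between the clusters on chromosomes 3 and 14 and the cluster on chromosome 11. Each member was centred on its own mean over the 8 arrays, and the root mean square (RMS) difference between centred profiles was taken as their distance on the log2 scale. This distance does not depend on the scaling between arrays. It was 0.11 between miR-15a-5p and miR-15b-5p, 0.11 between miR-15a-5p and miR-16-5p and 0.13 between miR-15b-5p and miR-16-5p. It was 0.15 between miR-195a-5p and miR-497a-5p. All 6 distances from a member of the first set to a member of the second were larger, from 0.36 to 0.47. With each group centred on its own mean, which takes out the difference between LPS and cesarean fluid, the distances were 0.07 to 0.15 within the sets and 0.26 to 0.35 across them.

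**Figure D2:**
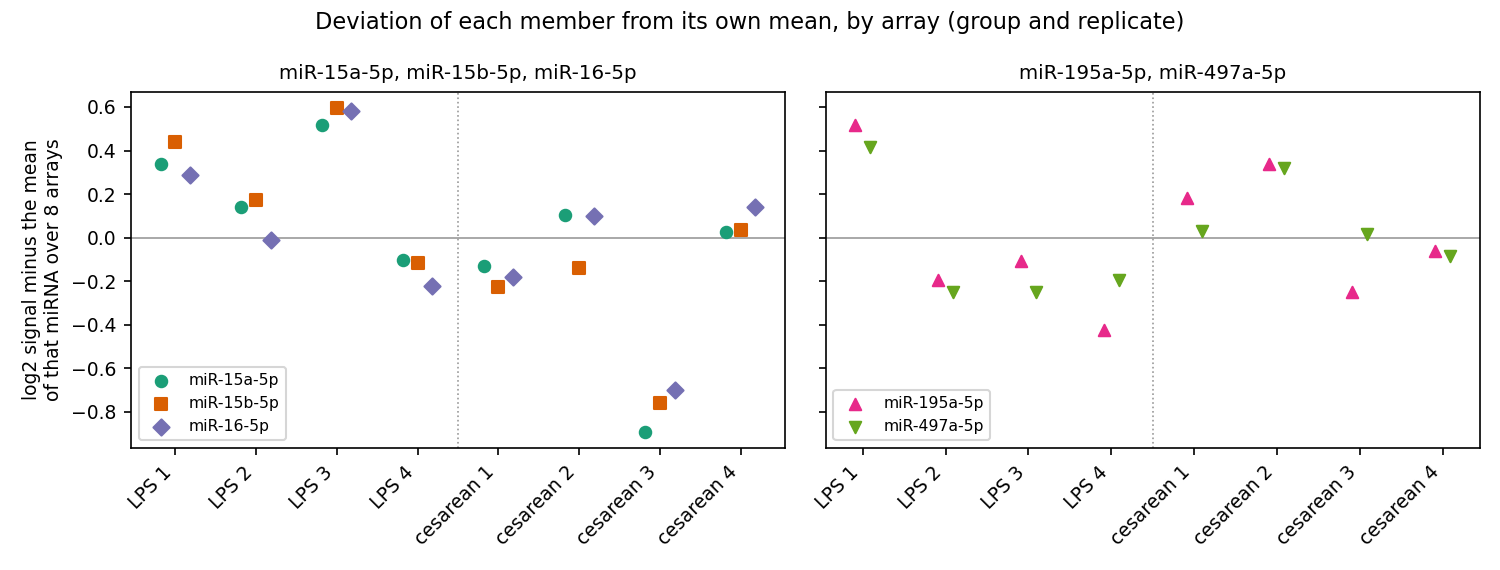
Deviation of each member's log2 signal from its own mean over the 8 arrays (vertical axis), for the 4 LPS arrays (left of the dotted line) and the 4 cesarean arrays (right), with miR-15a-5p, miR-15b-5p and miR-16-5p in the left panel and miR-195a-5p and miR-497a-5p in the right. The first 3 members are all highest on LPS replicate 3 and lowest on cesarean replicate 3, while the other 2 are highest on LPS replicate 1.

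The pairs of probes give the part of the error of these distances that arises between probes. Both probes of a member read the same RNA on the same arrays, so error shared by them is not covered. The 2 probes of 1 member were 0.02 apart for miR-15a-5p, 0.03 for miR-16-5p, 0.06 for miR-195a-5p, 0.13 for miR-497a-5p and 0.21 for miR-15b-5p. The distances across the sets exceeded all of these, both with the brighter probes and with the dimmer ones (0.33 to 0.55). Within the sets the dimmer probes were 0.11 to 0.30 apart, and with the brighter probes the distances from miR-15b-5p to miR-15a-5p and miR-16-5p were smaller than that between its own probes.

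**Figure D3:**
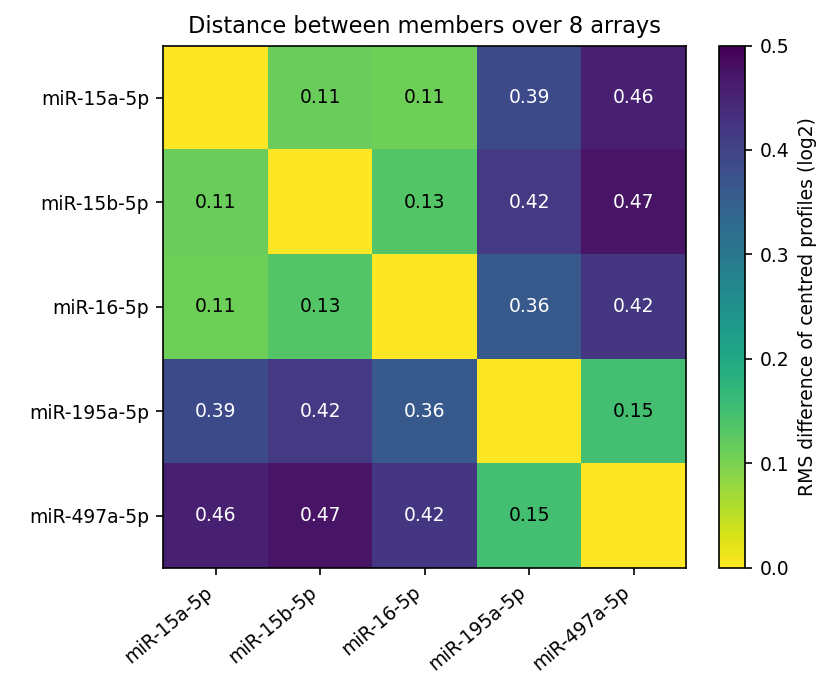
RMS difference between the centred log2 profiles of each pair of members over the 8 arrays (colour and printed value, brighter probes; the diagonal is 0 by construction). Distances are 0.11 to 0.15 within the sets formed by miR-15a-5p, miR-15b-5p and miR-16-5p and by miR-195a-5p and miR-497a-5p, and 0.36 to 0.47 across them.

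By profile, miR-195a-5p lay at 0.36 from miR-16-5p, its nearest member by sequence, and at 0.15 from miR-497a-5p, its neighbour on chromosome 11, with which it is identical at 12 of 21 positions. The probes used for the 2 members most alike in sequence are shown; they are DNA complements of miR-16-5p from base 5 and of miR-195a-5p from base 3 to the 3′ end.
probe for miR-16-5p: cgccaatatttacgtgct
probe for miR-195a-5p: gccaatatttctgtgctgc
The probe for miR-195a-5p is complementary to miR-16-5p at 17 of its 19 bases, and the probe for miR-16-5p to miR-195a-5p at 15 of its 18. Other members matched in part too. The probe used for miR-15a-5p is complementary to miR-15b-5p at 18 of its 22 bases and to miR-497a-5p at 17. Those used for miR-15b-5p and for miR-497a-5p are each complementary to miR-15a-5p at 16 of their 20 bases. How much of any member's signal came from another member was not tested, and the distances within and across the sets may include such signal. The same-seed miR-195b is identical to miR-195a-5p over its first 16 bases, and no probe of miR-195b was above background on any of the 8 arrays.

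Each member was then set against all other tested miRNAs by the same distance. Of 469 tested miRNAs, the nearest to miR-15a-5p was miR-16-5p (0.11), the nearest to miR-15b-5p and to miR-16-5p was miR-15a-5p, and the nearest to miR-195a-5p was miR-497a-5p (0.15). The nearest to miR-497a-5p was miR-3473f (0.10), which is no member. The median distance to all tested miRNAs was 0.53 to 0.65. These distances are descriptions over the same 8 arrays and were not tested.

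Outside the family, the 5 miRNAs nearest to its mean profile were let-7g-5p (0.13), miR-24-3p (0.14), let-7c-5p (0.14), miR-29c-3p (0.15) and miR-221-3p (0.15), against a median of 0.55 over 465 tested miRNAs. Both let-7 miRNAs belong to a family known for repressing Ras and Lin28 genes, and miR-29c-3p to a family that represses collagen genes. The differences of the 5 miRNAs between LPS and cesarean fluid were 0.11 to 0.45, all positive, and none passed (limma adjusted p = 0.247 to 0.822). They were picked for closeness to the family mean over the same arrays, so differences like that of the mean follow from the selection. That mean averages members of both sets described above.

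Among other miRNAs with the same 7-base seed, miR-322-5p, the ortholog of human miR-424, was the only one above background on any array. The array held 5 miRNAs with this seed besides the members, and miR-195b, miR-6342, miR-6353 and miR-6419 were above background on 0 of 8 arrays. The mature sequences of miR-322-5p and of miR-503-5p, its neighbour on the X chromosome, show that the first shares the family's seed and that the second has another last seed base.
miR-322-5p: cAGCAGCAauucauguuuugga
miR-503-5p: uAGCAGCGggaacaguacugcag

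miR-322-5p had log2 signals of 10.15, 11.28, 9.90 and 10.36 in LPS fluid, against 8.06, 8.91, 8.35 and 9.04 in cesarean fluid. Every LPS array exceeded every cesarean array. The difference was 1.83 ± 0.35 (SE) or 3.56-fold (limma adjusted p = 0.0266). Of 22 alternative settings, 13 kept it under the threshold. The adjusted p from limma was 0.226 with no filter on dim miRNAs, 0.166 without scaling between arrays and 0.141 with spike-in scaling. With the scanner software's total the limma adjusted p was 0.0807, and with a block for slide column it was 0.0732. It was 0.0549 without LPS replicate 2, and 0.0702, 0.0577 and 0.0729 without cesarean replicates 1, 2 and 3. Relative to each family member on the same array, miR-322-5p was higher in all LPS arrays than in any cesarean array, with changes from 1.29 against miR-15b-5p to 1.97 against miR-497a-5p (log2).

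The rest of the wider miR-15 and miR-107 group, which shares the core of the seed, did not pass. miR-503-5p differed by 0.65 ± 0.40 (SE, limma adjusted p = 0.343). miR-103-3p and miR-107-3p, which lie in introns of pantothenate kinase genes, differed by 0.09 ± 0.24 (adjusted p = 0.874) and -0.01 ± 0.25 (adjusted p = 0.983) in the same limma fit. In this group of 4, 1 was called higher and none lower, beside 4.89% called over all tested miRNAs. That call was miR-322-5p, whose rise was known when the list was chosen. The median difference of the group was 0.37, against -0.06 over all tested miRNAs. The opposite arms of the family hairpins (miR-15a-3p, miR-15b-3p, miR-16-1-3p, miR-16-2-3p, miR-195a-3p and miR-497a-3p) were all on the array, and none was above background on any of the 8 arrays.

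**Figure D4:**
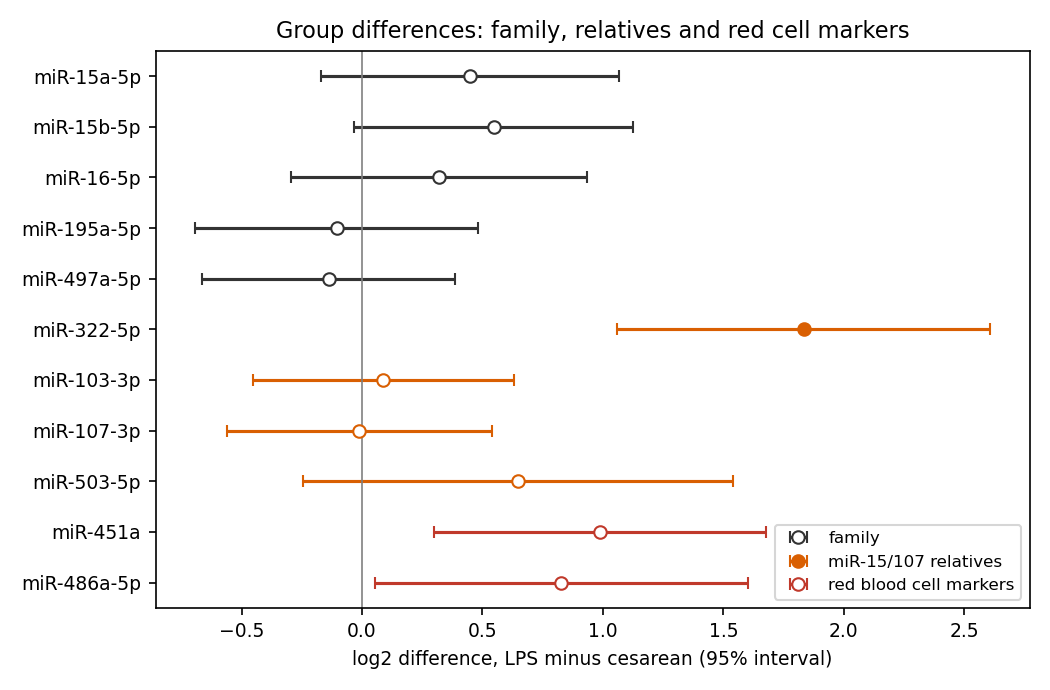
Difference in log2 signal, LPS minus cesarean, with its 95% interval from limma (horizontal axis), for the 5 family members (black), 4 relatives of the miR-15 and miR-107 group (orange) and 2 red blood cell markers (red), with miR-144-3p left out because it has only a bound; filled points passed an adjusted p of 0.05. The intervals of all 5 members include 0, and only that of miR-322-5p is filled.

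Markers of blood and other cells were read beside the family, because miR-16 is abundant in red blood cells. miR-451a, the most erythroid of these markers, had log2 signals of 14.90, 13.76, 14.56 and 14.13 in LPS fluid, against 13.09, 13.32, 13.06 and 13.92 in cesarean fluid, with 3 of 4 LPS arrays above every cesarean array (difference 0.99 ± 0.31 SE, limma adjusted p = 0.0812). miR-486a-5p, also enriched in red blood cells, had 8.48, 7.47, 8.55 and 8.36 in LPS fluid, against 6.94, 7.54, 6.94 and 8.13 in cesarean fluid (difference 0.83 ± 0.35 SE, limma adjusted p = 0.172).

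miR-144-3p, made from the same transcript as miR-451a, was above background on 4 of 4 LPS arrays and 0 of 4 cesarean arrays. The detection limit of the cesarean arrays gave a lower bound of 2.72-fold for its rise. In the limma fit, the cesarean arrays of miR-144-3p lay at the floor common to all arrays. The difference was 1.14 on the log2 scale or 2.20-fold (adjusted p = 0.0172), and it passed in 12 of 21 alternative settings. miR-144-3p entered the test through the LPS arrays alone, and its floored cesarean values had no spread. Its p-values are therefore no independent support for a rise. The adjusted p from limma was 0.125 with a block for slide column, 0.0565 without LPS replicate 2, and 0.0618, 0.0577 and 0.0666 without cesarean replicates 1, 2 and 3. The bound of 2.72-fold sets its LPS mean against the lowest signal well above background on each cesarean array. The LPS signals, 4.74 to 5.11, lay near the floor of 3.75, and the size of the limma difference depended on that floor. It was 0.14 (limma adjusted p = 0.366) with the floor raised by a factor of 2. With the floor lowered by a factor of 2 it was 2.14 (limma adjusted p = 0.000713). Normexp background correction gave 0.56 (limma adjusted p = 0.204). miR-144-5p was above background on 2 LPS arrays and no cesarean array. In all, 4 of the 5 listed red cell markers were on the array, 3 were tested and 1, miR-144-3p, was called. Over all tested miRNAs 4.89% were called. The summed signal of the tested markers was 13.78 to 14.92 in LPS fluid and 13.09 to 13.94 in cesarean fluid (log2). This sum was almost wholly that of miR-451a, whose own signals were 13.76 to 14.90 and 13.06 to 13.92. The part of red blood cell RNA in the differences of miR-15a-5p, miR-15b-5p and miR-16-5p was not tested.

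Of the other marker lists, 1 of 3 tested leukocyte miRNAs was called, miR-142a-3p (1.23, limma adjusted p = 0.0325, called in 7 of 21 alternative settings). It was called without LPS replicates 1 or 4 but not without any of the other 6 arrays. Its cesarean signals, 3.75 to 4.26, lay at or near the floor of 3.75. With the floor raised by a factor of 2 its difference was 0.53 (limma adjusted p = 0.195). With the floor lowered by a factor of 2 it was 1.38 (limma adjusted p = 0.0427). Normexp background correction gave 0.47 (limma adjusted p = 0.217). miR-223-3p differed by 0.09 and miR-342-3p by -0.45. The summed leukocyte signal was 9.30 to 9.82 in LPS fluid and 9.42 to 9.80 in cesarean fluid. Of the epithelial miR-200 family 3 of 5 were called higher (sum 10.49 to 11.13 in LPS fluid and 9.51 to 9.94 in cesarean fluid); miR-200a-3p and miR-200b-3p lost the call without LPS replicates 2 or 3 or without any 1 cesarean array, and miR-200c-3p without cesarean replicate 3. With a block for slide column none of these 4 calls remained in limma (adjusted p = 0.125 for miR-142a-3p, 0.146 for miR-200a-3p, 0.171 for miR-200b-3p and 0.0868 for miR-200c-3p). None of 4 smooth muscle and mesenchymal miRNAs was called (sum 9.45 to 10.35 in LPS fluid and 10.19 to 11.44 in cesarean fluid). They went in both directions: miR-143-3p differed by 0.62 and miR-145a-5p by 0.71, but miR-199a-3p by -0.98 and miR-214-3p by -1.34. The endothelial miR-126a-3p differed by -0.09. A sum follows mainly the brightest probes of its list, and each probe binds with its own strength. For leukocytes the brightest was miR-223-3p, and for smooth muscle and mesenchyme miR-199a-3p. Beside the counts of these lists, the share called over all tested miRNAs was 4.89%. The part of these cells in the family's levels was not tested.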

How the data were processed

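The spot intensity values were deposited as scanner output; per the file headers the background-subtracted linear signals were extracted with version 10.7.1.1 of Agilent's Feature Extraction, while the submitters' processing notes name version 9.1. The labels describe the Cy3 material as cRNA, and the labelling of miRNAs themselves is not described there. The deposited value table holds log2 values normalized by the authors (method not given in the sources used here; column medians 2.14 to 2.15). It correlated with the arrays at r of 0.964 to 0.972, each column best with its own array, and served as an alternative.

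Control and outlier-flagged spots were removed. A probe counted as above background where a share of 0.5 of its spots did. Signals were divided by each array's 75th percentile over the 618 probes above background on all 8 arrays, floored at 13.48 (3.75 on the log2 scale) and tested for the 470 miRNAs above background on 3 or more arrays of a group, with limma 3.58.1 in R 4.3.3 and Benjamini-Hochberg adjustment, after a check on simulated data. Sequences were handled in Python 3.11.15.

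The text names the members, same-seed and miR-107 group miRNAs, opposite arms, cell markers and the miRNAs with the nearest profiles. Members and lists were chosen with earlier results of these data known, among them the rise of miR-322-5p, which is no independent evidence. The probe distances and the alternatives for pairs were added after seeing the data. The labels pair no samples.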

Additional observations from a re-analysis of the deposited data

Results flagged for a closer look

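One value stood far from the others of its group. miR-497a-5p on LPS replicate 1 was at 8.0422 (log2), against 7.38, 7.38 and 7.43 on the other LPS arrays, and its gap to the nearest of them was 0.912 of the group's range, above Dixon's 95% critical value for 4 samples. The test was made for 10 groups (5 members in LPS and in cesarean fluid), and chance flags about 1 in 20 groups. miR-195a-5p was also highest on LPS replicate 1 (8.57), with a ratio of 0.66 that stayed under the critical value. LPS replicate 1 had the fewest miRNAs above background of all 8 arrays (405). Without it the differences were -0.30 for miR-497a-5p and -0.29 for miR-195a-5p.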

How the results depend on the processing

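No member passed the threshold in any of 22 alternative settings. The sign was the same in all 22 for miR-15a-5p (0.22 to 0.56), miR-15b-5p (0.38 to 0.68, lowest adjusted p = 0.0983 in limma), miR-16-5p (0.14 to 0.57) and miR-497a-5p (-0.30 to -0.04), and in 21 for miR-195a-5p. With 1 array left out, miR-195a-5p ranged from -0.29 (without LPS replicate 1) to 0.0192 (without LPS replicate 4). The count of 23 called miRNAs, which holds no member, became 13 with the 75th percentile over all probes (9 higher, 4 lower), 1 without scaling, 1 with spike-in scaling, 36 with quantile normalization (24 higher, 12 lower), 9 with normexp background correction, 6 with the scanner software's total, 15 with only miRNAs above background on all 8 arrays, 2 with no filter on dim miRNAs and 1 with a block for slide column. With 1 array left out it was 79, 4, 7 and 25 without LPS replicates 1 to 4, and 5, 4, 3 and 9 without cesarean replicates 1 to 4. The causes were not tested. Of the 10 pairs, 2 changed sign: miR-15a-5p relative to miR-16-5p, at -0.02 in the value table, and miR-195a-5p relative to miR-497a-5p, at -0.13 in the value table, -0.08 for the mean of probes, -0.02 for the software's total, -0.20 for the dimmer probes, -0.01 without LPS replicate 3 and -0.05 without cesarean replicate 3. The block for slide column joins 1 LPS and 1 cesarean array by position alone, since the labels pair no samples, and no member was called with it. The number of arrays limits precision: the 95% intervals of the members reach about 1 log2 unit to the high side for miR-15a-5p, miR-15b-5p and miR-16-5p.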
